A study of Mus musculus with 10 samples.

Results

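The genes described are 10 markers of testis macrophages, taken by symbol from a table of raw counts of 25239 genes: Cd68, Csf1r, Adgre1, C1qa, C1qb, C1qc, Lyz2, Mrc1, Cd163 and Tyrobp. All 10 were found. The counts come from RNA sequencing of 10 libraries in 4 groups. Primary Leydig cells, the steroid-making cells between the seminiferous tubules, came from mouse testes at 24 months of age (n = 2) and at 2 months (n = 2) and had no treatment. MLTC-1, a line grown from a mouse Leydig cell tumour, received Hymeglusin (n = 3), an inhibitor of HMG-CoA synthase, or its solvent control DMSO (n = 3). The labels name no genotype, strain, dose, duration, isolation method or number of mice per library, and nothing in them says that replicates came from separate mice or cultures. The p-values therefore cover only library-to-library spread, which may be technical. A cultured line holds no macrophages, so MLTC-1 serves as a macrophage-free reference. A tumour line differs from primary cells in other ways too, so its levels need not be those of primary Leydig cells without macrophages.

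Macrophages of the testis lie against Leydig cells and along the tubule wall, and take up debris, present antigen and supply factors to their neighbours. They depend on signalling through the CSF1 receptor, encoded by Csf1r. C1qa, C1qb and C1qc encode the chains of C1q, which starts the classical complement pathway and is made largely by macrophages. Lyz2 encodes lysozyme M, an enzyme that cleaves bacterial cell walls and that macrophages and neutrophils both make. Mrc1 (the mannose receptor CD206) and Cd163 (the haemoglobin scavenger receptor) mark resident macrophages, Adgre1 encodes the surface antigen F4/80, Cd68 a lysosomal membrane glycoprotein, and Tyrobp the adaptor DAP12 that passes on signals from activating receptors.

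Library totals ran from 17407456 to 34787330 counts. The 24-month pair differed from each other more than the 2-month pair, with a chi-square per degree of freedom over genes of 134 at 24 months and 18.9 at 2 months. Markers of Leydig cells were abundant in every library, with a sum of 24757 and 16747 CPM at 24 months, against 20319 and 18501 CPM at 2 months. CPM here is the count scaled to library size with TMM factors over all 10 libraries. In bulk samples, fewer cells of a type and less RNA per cell cannot be told apart.

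In the primary cells the 10 markers were present at low levels, and their sum was higher at 24 months. Cd68 and Csf1r also had counts in every MLTC-1 library, so these genes were not at 0 in a line without macrophages. Summed counts were 841 and 1109 in the 24-month libraries, 332 and 389 in the 2-month libraries, 89 to 104 with Hymeglusin and 14 to 27 with DMSO. The scaled sum was 50.8 ± 6.92 CPM at 24 months and 14.6 ± 1.17 CPM at 2 months (mean ± SD, n = 2 each). It was 3.12 ± 0.372 CPM with Hymeglusin and 0.723 ± 0.326 CPM with DMSO (n = 3 each). The sum carries no test, since its members were chosen with earlier results known. Lyz2 alone gave 37.2% of it at 24 months and 19.7% at 2 months, while Csf1r gave 78.0% of it with Hymeglusin and 33.9% with DMSO.

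**Figure D1:**
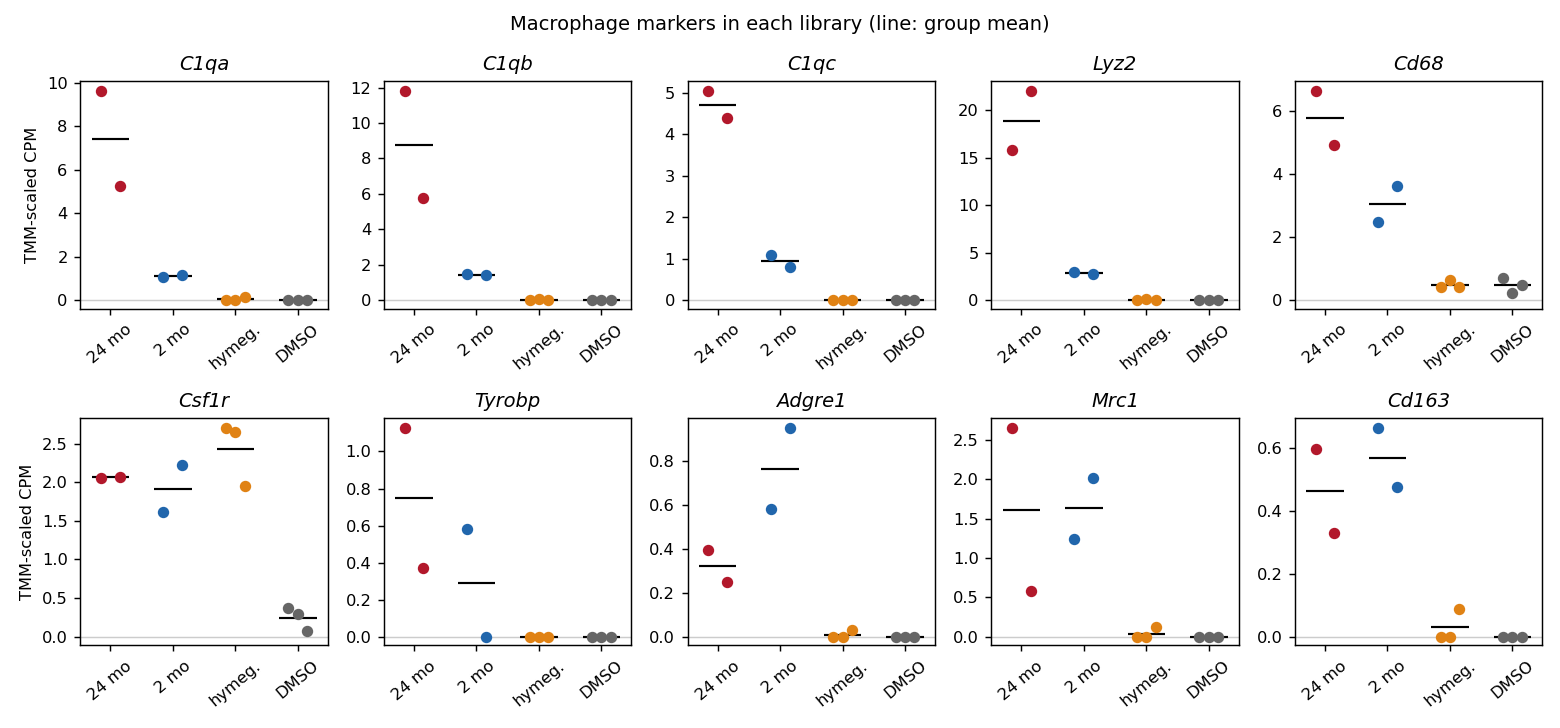
Level of each of the 10 markers in each library, in TMM-scaled CPM on linear axes that differ between genes; points are libraries of primary cells at 24 and 2 months and of MLTC-1 cells with Hymeglusin and DMSO, and the line is the group mean. The C1q genes and Lyz2 stand higher in both 24-month libraries than in any other library, and Csf1r stands at 1.95 to 2.70 CPM with Hymeglusin against 0.0781 to 0.367 CPM with DMSO.

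Levels between genes were compared per kilobase of the longest transcript. At 24 months the order in mean CPM per kilobase was Lyz2 (14.4), C1qb (8.06), C1qa (7.14), Cd68 (4.69), C1qc (3.92), Tyrobp (1.25), Csf1r (0.438), Mrc1 (0.3004), Cd163 (0.104) and Adgre1 (0.0997). Neighbours in this order had overlapping libraries, except that Lyz2 lay above C1qb, C1qc above Tyrobp and Tyrobp above Csf1r. At 2 months the order was Cd68 (2.48), Lyz2 (2.19), C1qb (1.32), C1qa (1.07), C1qc (0.777), Tyrobp (0.486), Csf1r (0.408), Mrc1 (0.304), Adgre1 (0.236) and Cd163 (0.128). Lyz2 thus held the first place at 24 months and the second at 2 months, where its libraries lay within the range of those of Cd68. At 2 months neighbours from C1qc to Adgre1 also overlapped, while Lyz2, C1qb, C1qa and C1qc were separate from each other and Cd163 lay below Adgre1. The surface markers of resident macrophages, Mrc1, Cd163 and Adgre1, held the last 3 places at both ages. With Csf1r, just above them, these are the 4 markers with the longest transcripts. Their low places therefore cannot be told apart from an effect of transcript length that division by length leaves.

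The comparison of primary Leydig cells at 24 and 2 months asks how the preparation changes with age. The C1q genes and Lyz2 rose, and the other 6 markers did not pass the test. By edgeR's quasi-likelihood test, 4 of the 10 markers were called higher, against 13.5% of all 16381 genes tested, and 0 were called lower, against 15.1% of all genes. No marker was lower at an unadjusted p under 0.05 either, and DESeq2 and limma-voom also called 4 higher and 0 lower. The median log2 fold change was 1.19 over the markers and -0.01 over all genes tested.

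C1qa had 145 and 127 counts at 24 months and 26 and 29 at 2 months. C1qb had 178 and 139 counts at 24 months and 35 and 36 at 2 months. C1qc had 76 and 106 counts at 24 months and 26 and 20 at 2 months. All 3 chains were higher in both 24-month libraries than in either 2-month library. C1qa rose to 7.43 ± 3.07 CPM at 24 months, against 1.11 ± 0.0507 CPM at 2 months, with a log2 fold change of 2.81 (SE 0.518) at an adjusted p of 0.00981, and 3.3e-06 to 0.0484 over the alternative settings. C1qb stood at 8.77 ± 4.27 CPM at 24 months and 1.44 ± 0.0169 CPM at 2 months (log2 2.68, SE 0.517, adjusted p = 0.0107, and 3.37e-06 to 0.0455 over the alternatives). Leaving out each library moved C1qb between 2.01, without 24-month replicate 1, and 3.07, without 24-month replicate 2. C1qc stood at 4.71 ± 0.457 CPM at 24 months and 0.935 ± 0.201 CPM at 2 months (log2 2.40, SE 0.532, adjusted p = 0.0147). The call of C1qc was lost without 2-month replicate 1 (adjusted p = 0.0911) or 2-month replicate 2 (0.141), in a range of 0.000397 to 0.141 over the alternatives. A fit that leaves 1 library at an age assumes that it varies like the other pair.

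The 3 C1q genes lie side by side on the minus strand of chromosome 4, between 136880129 and 136898803 (GRCm38), each with 3 exons. C1qa is 2852 bases from C1qc, and C1qc is 3617 bases from C1qb. Per length, C1qa made up 38.1% and 36.1% of the C1q counts at 24 months and 31.7% and 35.9% at 2 months. C1qb made up 44.7% and 37.8% at 24 months, against 40.8% and 42.6% at 2 months. C1qc made up 17.3% and 26.1% at 24 months, against 27.4% and 21.4% at 2 months. The shares of C1qb and C1qc overlapped between the ages, and that of C1qa was slightly higher in both 24-month libraries. No test was run on the shares.

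Lyz2 (chromosome 10, 117277331 to 117282321) had 239 and 531 counts at 24 months and 72 and 70 at 2 months. Its level was 18.9 ± 4.35 CPM at 24 months and 2.88 ± 0.148 CPM at 2 months, or a log2 fold change of 2.79 (SE 0.399) with an adjusted p of 0.00470. Without 24-month replicate 2, the library with 531 counts, the log2 fold change was 2.49 and the gene was still called (adjusted p = 0.000168, and 1.13e-08 to 0.0343 over the alternatives). Lyz2 has a close copy, Lyz1, 5476 bases away, whose transcript was 96.0% identical over 1262 aligned bases. Lyz1 had 6 and 1 counts at 24 months and 4 and 0 at 2 months, so nearly all assigned lysozyme reads went to Lyz2, though how shared reads were treated is not given in the sources used here.

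Neutrophil genes were also higher at 24 months, and their sum was highest in 24-month replicate 2, as Lyz2 was. S100a9, a calcium-binding protein of neutrophils, had 64 and 741 counts at 24 months and 0 in both 2-month libraries, and Ngp, a granule protein, had 49 and 581 against 0. Summed over 8 neutrophil genes, the 24-month libraries held 14.2 and 96.8 CPM, against 0.746 and 0.951 CPM at 2 months. Ly6g, a defining marker of mature neutrophils, was listed at 0 in all 10 libraries. Of the 6 neutrophil genes tested all were called higher, but 5 of them had 0 counts at 2 months and entered the test only through the 24-month libraries, and 2 of the 6 were called with the transcript length offset described below. The part of neutrophils in the Lyz2 result was not tested. In 24-month replicates 1 and 2, Lyz2 stood at 15.8 and 22.0 CPM and C1qa at 9.60 and 5.26 CPM. C1qb stood at 11.8 and 5.75 CPM, and C1qc at 5.03 and 4.39 CPM. A relation of the C1q genes to neutrophils was not tested either.

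Promoters of members that moved together are shown as RefSeq windows on GRCm38.p6, from 250 bases before to 50 bases after the gene's start, 5′ to 3′ on the gene's strand. A window was matched for 6 of the 10 markers. C1qb (chr4:136886151-136886450, minus strand), C1qc (chr4:136892865-136893164, minus strand) and Lyz2 (chr10:117282223-117282522, minus strand) are shown because they rose at 24 months, and Mrc1 (chr2:14229164-14229463, plus strand) because it was not called. Capitals mark GAGGAA and GGAAGT on either strand, cores of the sites bound by PU.1, the macrophage transcription factor encoded by Spi1. The cores overlap where GAGGAA is followed by GT.
C1qb: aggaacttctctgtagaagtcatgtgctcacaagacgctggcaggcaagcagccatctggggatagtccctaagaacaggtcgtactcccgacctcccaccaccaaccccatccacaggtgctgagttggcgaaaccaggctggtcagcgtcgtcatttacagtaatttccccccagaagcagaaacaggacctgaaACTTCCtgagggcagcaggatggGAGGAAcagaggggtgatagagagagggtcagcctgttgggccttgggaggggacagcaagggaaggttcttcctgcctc
C1qc: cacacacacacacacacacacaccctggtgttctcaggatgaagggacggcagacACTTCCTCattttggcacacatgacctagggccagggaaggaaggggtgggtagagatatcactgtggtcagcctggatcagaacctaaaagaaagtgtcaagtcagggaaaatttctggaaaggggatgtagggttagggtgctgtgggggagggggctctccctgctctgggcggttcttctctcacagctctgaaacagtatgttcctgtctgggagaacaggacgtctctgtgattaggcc
Lyz2: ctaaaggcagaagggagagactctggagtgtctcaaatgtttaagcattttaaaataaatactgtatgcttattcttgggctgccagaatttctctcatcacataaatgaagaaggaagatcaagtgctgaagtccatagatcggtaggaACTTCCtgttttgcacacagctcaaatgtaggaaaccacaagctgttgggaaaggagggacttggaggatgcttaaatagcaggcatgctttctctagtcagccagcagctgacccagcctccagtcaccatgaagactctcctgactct
Mrc1: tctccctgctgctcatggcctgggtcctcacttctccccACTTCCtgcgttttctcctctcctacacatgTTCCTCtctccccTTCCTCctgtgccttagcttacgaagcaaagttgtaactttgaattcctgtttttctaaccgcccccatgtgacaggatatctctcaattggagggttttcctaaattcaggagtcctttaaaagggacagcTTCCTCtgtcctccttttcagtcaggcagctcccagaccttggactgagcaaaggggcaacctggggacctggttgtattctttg
C1qb and C1qc each held 1 GAGGAA and 1 GGAAGT, which overlapped in C1qc, Lyz2 held 1 GGAAGT, and Mrc1 held 3 GAGGAA and 1 GGAAGT. Cd68 held 2 and 1, and neither was found in the window of Cd163. Of all 32851 promoter windows, 28.3% held GAGGAA, 23.8% held GGAAGT and 43.4% held at least 1 of them. The motifs were thus present both in markers called higher and in Mrc1 and Cd68, which were not, and a match is a description, not a site.

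Cd68 (chromosome 11, 69664213 to 69666153) had 100 and 119 counts at 24 months and 60 and 91 at 2 months. In CPM both 24-month libraries (6.62 and 4.93) lay above both 2-month libraries (2.49 and 3.61), and the log2 fold change of 1.01 (SE 0.457) did not pass the test (adjusted p = 0.121). It passed without 24-month replicate 2 (adjusted p = 0.0409), in a range of 0.0409 to 0.977 over the alternatives. Csf1r had 31 and 50 counts at 24 months and 39 and 56 at 2 months, or 2.06 ± 0.0117 CPM and 1.92 ± 0.426 CPM, and the libraries of the ages overlapped (log2 0.19, SE 0.546, adjusted p = 0.814). Tyrobp (chromosome 7, 30413760 to 30417585) had 17 and 9 counts at 24 months and 14 and 0 at 2 months, too few to separate the ages (log2 1.38, SE 1.25, adjusted p = 0.418). Leaving out each library moved it between 0.36, without 2-month replicate 2, and 7.04, without 2-month replicate 1.

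The surface receptors of resident macrophages showed no called change. Adgre1 (chromosome 17, 57358691 to 57483527) had 6 counts in each 24-month library and 14 and 24 at 2 months. Its CPM was lower in both 24-month libraries, and the log2 fold change of -1.18 (SE 0.815) did not pass the test (adjusted p = 0.290). Adgre1 passed the count filter only through the 2-month libraries, where its counts were higher, so nothing is read from its test. Mrc1 had 40 and 14 counts at 24 months and 30 and 51 at 2 months. Its 24-month libraries, at 2.65 and 0.579 CPM, lay on either side of the 2-month ones at 1.24 and 2.02 CPM (log2 0.05, SE 0.765, adjusted p = 0.969). Without 24-month replicate 1 the log2 value of Mrc1 was -1.47, and without 24-month replicate 2 it was 0.73, so its direction rests on single libraries. Cd163 (chromosome 6, 124304656 to 124330527) had 9 and 8 counts at 24 months and 16 and 12 at 2 months, with overlapping CPM (log2 -0.25, SE 0.810, adjusted p = 0.835).

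The markers split by transcript length as all genes did. The 6 markers with a longest transcript of 597 to 1316 bases (Tyrobp, C1qa, C1qb, C1qc, Cd68 and Lyz2) had a median log2 fold change of 2.54. The 2502 genes tested with transcripts of 500 to 1500 bases had a median of 1.22, and 44.6% of them were called higher and 1.6% lower. The 4 markers with 3238 to 5374 bases (Adgre1, Cd163, Csf1r and Mrc1) had a median of -0.10. The 5781 genes of 3000 to 5500 bases had a median of -0.46, with 3.89% called higher and 16.6% lower. Among the short markers, the C1q genes and Lyz2 lay above the middle of the genes of their length, while Cd68 and Tyrobp lay close to the median of theirs.

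**Figure D2:**
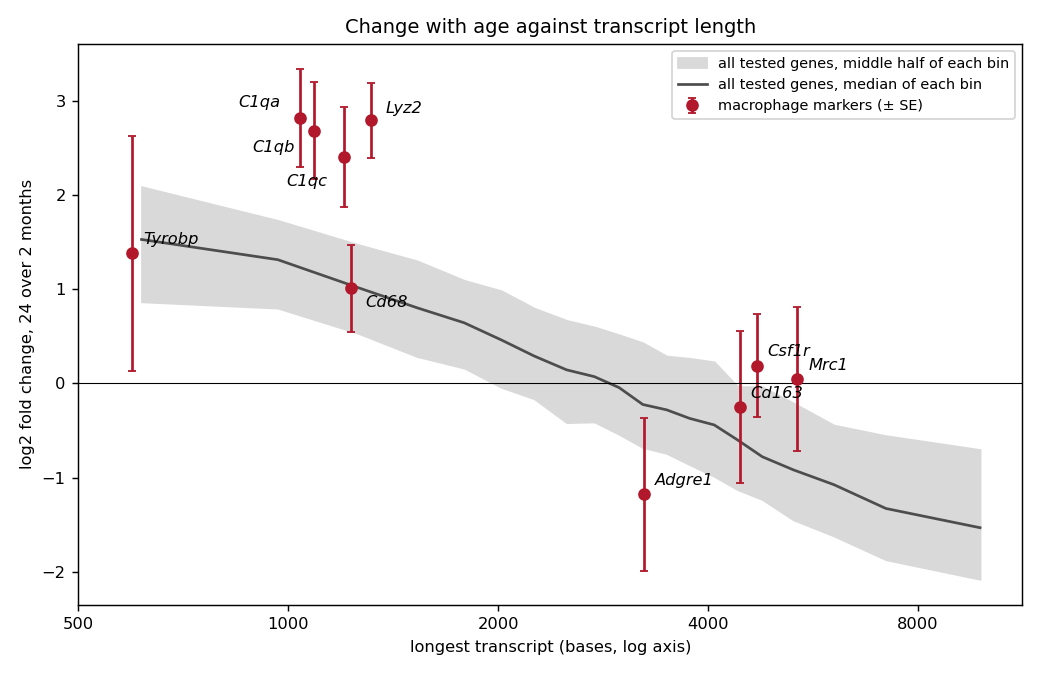
Log2 fold change at 24 over 2 months against the length of the longest transcript in bases (log axis). The line and band are the median and the middle 50% of all genes tested in 20 bins of about equal size, and points are the 10 markers with their SE; C1qa, C1qb, C1qc and Lyz2, at 2.40 to 2.81, lie above the band, and the other 6 are in the band or within an SE of it.

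With an offset that removes a smooth trend on transcript length from each library, 3 of the 10 markers were called higher and 0 lower, against 8.69% and 5.54% of all genes. Lyz2 stood at a log2 of 1.88 (SE 0.404, adjusted p = 0.00678), C1qa at 1.58 (SE 0.471, adjusted p = 0.0358) and C1qb at 1.48 (SE 0.451, adjusted p = 0.0395). C1qc stood at 1.36 (SE 0.542) and was no longer called (adjusted p = 0.105). Cd68 stood at -0.03 (SE 0.444) and Tyrobp at -0.33 (SE 1.16). Of the long markers, Mrc1 moved up to 1.09 (SE 0.788), Csf1r to 0.89 (SE 0.588) and Cd163 to 0.38 (SE 0.898). Adgre1 stayed below 0, at -1.02 (SE 0.892), and none of these passed the test. The median over the 10 markers was 0.99 with the offset and that of all genes -0.01.

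**Figure D3:**
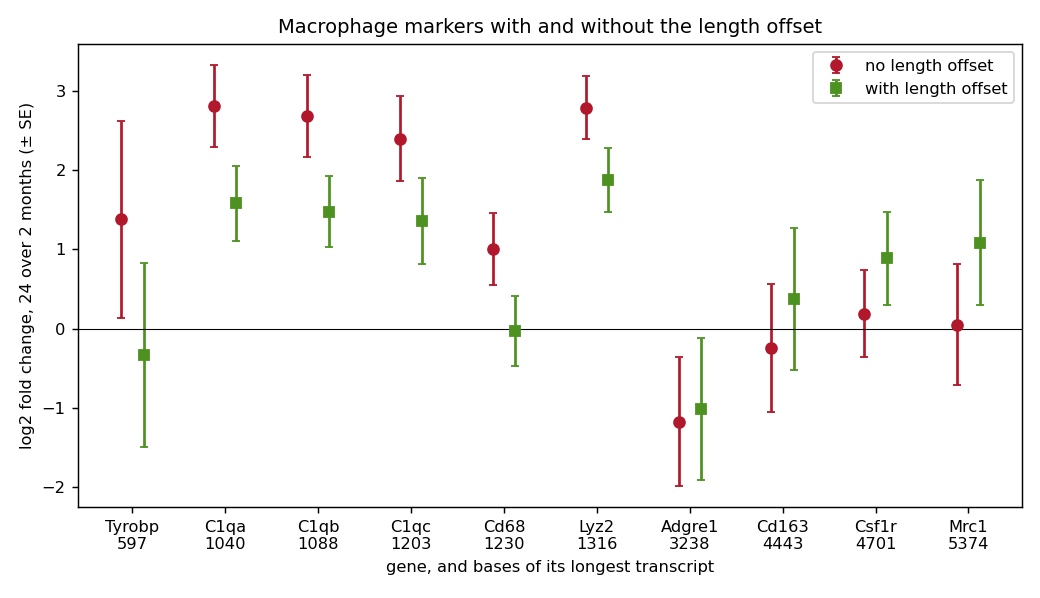
Log2 fold change at 24 over 2 months of each marker without (circles) and with (squares) the transcript length offset; bars are the SE, and genes run from the shortest to the longest transcript. The C1q genes fall to 1.36 to 1.58 and Lyz2 to 1.88, Cd68 falls to about 0, and Mrc1 and Csf1r move up to 1.09 and 0.89.

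Other macrophage genes, from a list of 20, went both ways. Of 14 tested, 6 were called higher and 1 lower without the offset, and 2 higher and 2 lower with it. Among the 6, Spi1 and Trem2, described below, passed the count filter only through the 24-month libraries. Cd14, a co-receptor for bacterial lipopolysaccharide, rose to 95.7 ± 10.2 CPM at 24 months, against 8.70 ± 0.533 CPM at 2 months (log2 3.54, SE 0.347, adjusted p = 0.00135), and was called with the offset as well (log2 2.84, adjusted p = 7.9e-05). Ctss, a protease of antigen presentation, stood at 3.12 ± 0.855 CPM and 0.549 ± 0.161 CPM (log2 2.57, adjusted p = 0.0194), and at an adjusted p of 0.0972 with the offset. Aif1, which encodes the actin-binding protein IBA1, stood at 115 ± 23.7 CPM and 39.0 ± 8.82 CPM (log2 1.65, adjusted p = 0.0130), and its transcript of 875 bases left a log2 of 0.32 with the offset (adjusted p = 0.5004). The summed level of the 20 genes was 309 and 312 CPM at 24 months, against 273 and 278 CPM at 2 months.

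Around the CSF1 receptor, 1 of 8 listed genes was called higher and 2 lower, where 13.5% and 15.1% of all genes were, and with the length offset 0 of the 8 were called. Csf1, the ligand that sustains macrophages, fell to 80.9 ± 3.18 CPM at 24 months, against 209 ± 11.4 CPM at 2 months (log2 -1.29, SE 0.317, adjusted p = 0.0199), and stood at -0.78 with the offset (adjusted p = 0.0962). Il34, the other ligand, stood at 4.41 ± 0.0351 CPM and 2.15 ± 0.355 CPM (log2 1.11, adjusted p = 0.106). Cbl, a ubiquitin ligase that acts on the receptor, fell (log2 -1.33, adjusted p = 0.0215), and stood at 0.30 with the offset (adjusted p = 0.549). Spi1, which encodes PU.1, had 18 and 56 counts at 24 months and 8 and 10 at 2 months. It was called higher (log2 2.34, adjusted p = 0.0393), with an adjusted p of 0.106 with the offset. Spi1 passed the count filter only through the 24-month libraries, so nothing is read from its call. Its mean was 0.364 CPM at 2 months and 0.476 CPM in MLTC-1 cells with DMSO.

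Complement genes other than C1q showed 3 higher and 1 lower of 12 tested among 15 listed, and the same numbers with the offset. C4b, the complement component that the C1 complex cleaves, rose to 255 ± 50.9 CPM at 24 months, against 30.6 ± 1.84 CPM at 2 months (log2 3.14, SE 0.352, adjusted p = 0.00182, and 4.11 with the offset, adjusted p = 9.68e-06). Cd59a, a membrane inhibitor of the final complement complex, rose without the offset (log2 1.40, adjusted p = 0.0240), and with it stood at 0.78 (adjusted p = 0.106). C1s1, a protease of the C1 complex, fell to 139 ± 65.4 CPM at 24 months, against 454 ± 0.190 CPM at 2 months (log2 -1.63, SE 0.391, adjusted p = 0.0189, and -1.61 with the offset, adjusted p = 0.00611). C1ra, the other listed gene of a C1 protease, stood at 149 ± 15.7 CPM at 24 months and 198 ± 11.4 CPM at 2 months. It was not called (log2 -0.33, adjusted p = 0.440, and -0.29 with the offset, adjusted p = 0.546). Among genes of the C1 complex, the C1q genes were thus higher and C1s1 lower at 24 months, with C1qc not called with the offset.

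Of 12 listed genes of DAP12-linked receptors and signalling, 6 could be tested and 1 was called higher, also with the offset. Trem2, a lipid-sensing receptor of macrophages, had 26 and 14 counts at 24 months and 0 and 4 at 2 months (log2 3.81, SE 1.17, adjusted p = 0.0386, and 0.00884 to 0.298 over the alternatives). It too entered the test only through the 24-month libraries, so nothing is read from its call. Btk, a tyrosine kinase of myeloid and B cells, stood at -1.97 (adjusted p = 0.0760), Inpp5d at -1.06 (adjusted p = 0.156) and Trem1 at 1.71 (adjusted p = 0.178). Of 11 lysosome and scavenger genes, 1 was lower, the haem-degrading enzyme Hmox1 (51.9 ± 7.16 CPM at 24 months and 129 ± 12.2 CPM at 2 months, log2 -1.24, adjusted p = 0.0241). Ctsl stood at 0.87 (adjusted p = 0.0735) and Ctsd at 0.72 (adjusted p = 0.164). With the offset Hmox1 was again lower and 2 cathepsins, Ctsl (log2 2.00) and Ctsb (log2 0.94), were called higher.

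Markers of other cells also differed between the ages. Of 6 monocyte genes 5 were tested and 2 called higher. Ly6c2 had 33 and 52 counts at 24 months and 0 and 2 at 2 months (log2 5.65, adjusted p = 0.00937), so it entered the test only through the 24-month libraries. Chil3 had 6 and 240 counts at 24 months, against 2 and 12 at 2 months (log2 4.27, adjusted p = 0.0344). In CPM the libraries of Chil3 overlapped, and it was not called with the offset (log2 3.65, adjusted p = 0.236, and 4.69e-09 to 0.751 over the alternatives). The monocyte sum was 16.3 and 21.3 CPM at 24 months, against 6.01 and 8.40 CPM at 2 months. The lymphocyte sum was 14.6 and 7.78 CPM at 24 months, against 6.13 and 4.36 CPM at 2 months, and neither of the 2 genes tested was called (Cd3d at an adjusted p of 0.0569). Of 4 fibroblast markers, Pdgfra, Dcn and Col3a1 fell and Col1a1 did not pass (log2 0.65, adjusted p = 0.507), and their sum was 114 and 197 CPM at 24 months, against 591 and 621 CPM at 2 months. With the offset 2 of the 4 fibroblast markers were called lower and 0 higher. All 5 spermatid markers rose, among them Tnp1 (857 ± 287 CPM at 24 months and 226 ± 28.9 CPM at 2 months, log2 2.01, adjusted p = 0.00985). The spermatid sum was 8327 and 4165 CPM at 24 months, against 1307 and 1715 CPM at 2 months. With the offset Acrv1 was the one of the 5 called. Endothelial (20.7 and 9.23 CPM at 24 months, 17.1 and 16.3 CPM at 2 months) and Sertoli cell sums (7.35 and 6.13 CPM at 24 months, 3.81 and 4.596 CPM at 2 months) were low, and none of their 3 and 5 tested genes was called. With the offset 1 of the 3 endothelial genes, Pecam1, was called higher (log2 3.02, adjusted p = 0.0449), and none of the Sertoli cell genes. Of 3 tested genes of peritubular muscle-like cells, Acta2 rose (log2 2.89, adjusted p = 0.0304), and with the offset it was no longer called (adjusted p = 0.0532). Of 7 Leydig cell genes, Insl3 rose (log2 1.73, adjusted p = 0.0285) and Lhcgr fell (log2 -1.49, adjusted p = 0.0163), and neither was called with the offset. The part of any of these cells in the results for the 10 markers was not tested.

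**Figure D4:**
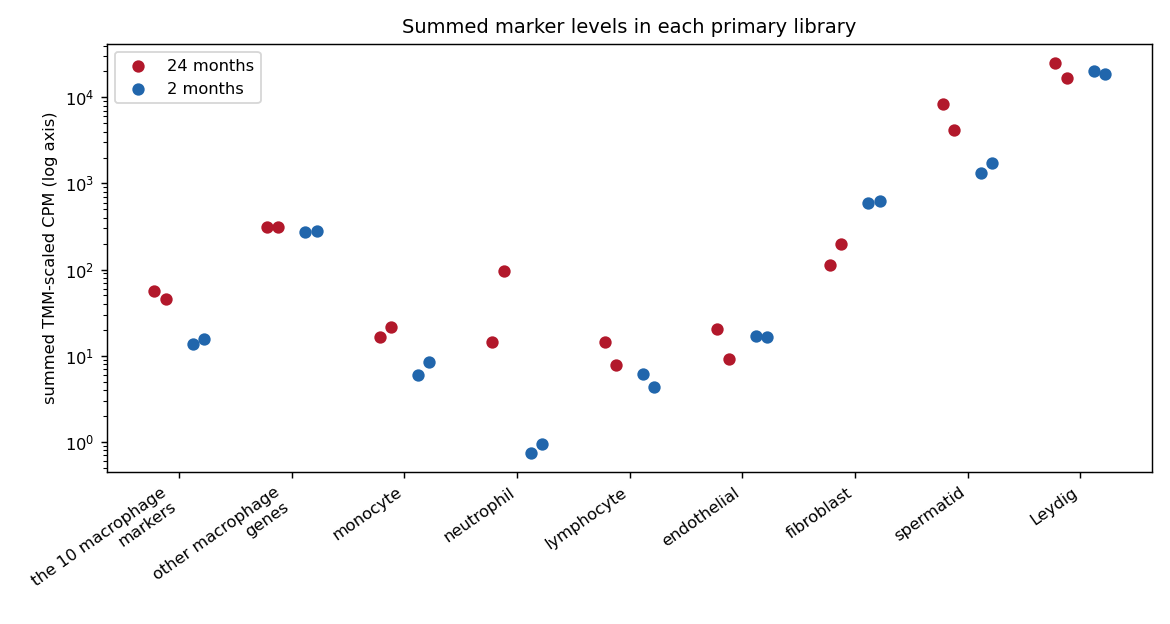
Summed TMM-scaled CPM (log axis) of 9 lists of cell type markers in each primary library, 24 months on the left and 2 months on the right of each pair. The 10 macrophage markers sum to 55.7 and 45.9 CPM at 24 months against 13.8 and 15.4 CPM at 2 months, and the neutrophil genes differ most between the 24-month libraries, at 14.2 and 96.8 CPM.

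In MLTC-1 cells 1 of the 10 markers, Csf1r, was called higher with Hymeglusin, and 8 of the 10 had too few counts to test. Csf1r passed the count filter only through the Hymeglusin libraries, where it is high. Its call and p-value are therefore given for completeness, and nothing is read from them. Csf1r had 77, 79 and 66 counts with Hymeglusin and 9, 10 and 2 with DMSO. Each Hymeglusin library stood above each DMSO library, and the level was 2.43 ± 0.422 CPM with Hymeglusin and 0.245 ± 0.150 CPM with DMSO (3 libraries each), with a log2 fold change of 3.20 (SE 0.364) and an adjusted p of 3.7e-09. Over the alternative settings the adjusted p of Csf1r ran from 1.64e-17 to 0.00461. Calls over all 12873 genes with enough counts were 23.8% higher and 24.5% lower. Among the 2 markers tested 1 was higher and 0 lower, also by DESeq2, limma-voom and an unadjusted p under 0.05. With the length offset 1 marker was again higher and 0 lower, where 24.1% and 25.3% of all genes were. Set beside the primary cells without a test, the Csf1r level with Hymeglusin was close to the 2.06 and 1.92 CPM at 24 and 2 months.

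Csf1r shares 873 of its 5774 exonic bases with Hmgxb3, a gene on the opposite strand, and the strand setting of the counting is not given, so reads of the shared part cannot be told apart. Hmgxb3 stood at 49.7 ± 1.44 CPM with Hymeglusin and 42.1 ± 2.35 CPM with DMSO, a log2 fold change of 0.17 (adjusted p = 0.0250). The neighbour on the same strand, Pdgfrb, had 3, 1 and 6 counts with Hymeglusin and 4, 2 and 0 with DMSO. The Csf1r ligand Csf1 fell to 88.0 CPM with Hymeglusin, against 116 CPM with DMSO (log2 -0.47, adjusted p = 1.3e-09).

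Cd68 was the other marker tested, with 12, 19 and 14 counts with Hymeglusin and 17, 8 and 12 with DMSO, and the groups overlapped (0.491 ± 0.127 CPM and 0.465 ± 0.2298 CPM, log2 0.06, SE 0.463, adjusted p = 0.932). C1qc and Tyrobp had 0 counts in all 6 MLTC-1 libraries. C1qa, C1qb, Adgre1, Mrc1 and Cd163 had 0 counts in all 3 DMSO libraries and 1 to 4 counts in all with Hymeglusin, and Lyz2 had 5 counts in all with Hymeglusin and 1 with DMSO. Hymeglusin replicate 3 held the 4 counts of C1qa, the 4 of Mrc1, the 3 of Cd163 and the 1 of Adgre1. A count of 0 allows up to 3 counts in a library, or 0.0862 to 0.172 CPM of unscaled counts, and this floor covers counting error only. It takes each count as a separate fragment. Whether mates of a read pair were counted separately is not given in the sources used here, and counts of 1 to 20 were even in 59.7% to 78.2% of values. If mates were counted separately, the floor and the folds set against it would change. Among the 20 other macrophage genes, 6 could be tested in MLTC-1 cells and 1 rose with Hymeglusin, the folate receptor gene Folr2 (log2 0.60, adjusted p = 0.0195).

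Primary cells of 2-month mice were set against DMSO-treated MLTC-1 cells to see how far the markers stand above their level in this macrophage-free line. Macrophage content and other differences between the line and primary cells cannot be told apart here. Cd68 was at 3.05 ± 0.791 CPM in 2-month primary cells and 0.465 ± 0.2298 CPM in MLTC-1 cells (log2 2.79, SE 0.471, adjusted p = 0.000446). Csf1r was at 1.92 ± 0.426 CPM in 2-month primary cells and 0.245 ± 0.150 CPM in MLTC-1 cells (log2 2.98, SE 0.538, adjusted p = 0.000685). Against 3 counts over the 3 DMSO libraries, Mrc1 was at least 46.2-fold higher in 2-month primary cells, C1qb at least 40.5-fold, C1qa at least 31.4-fold, C1qc at least 26.2-fold, Adgre1 at least 21.7-fold and Cd163 at least 16.0-fold. For Tyrobp no fold is given, since its 14 counts in 2-month primary cells all came from replicate 1 and replicate 2 was at 0, like the DMSO libraries. Lyz2 had 72 and 70 counts in 2-month primary cells and 1, 0 and 0 in MLTC-1 cells. By the same test 9 markers were called higher, where 48.5% of 16092 genes were, and 0 lower, where 34.4% were. DESeq2, limma-voom and an unadjusted p under 0.05 gave the same 9 and 0, and so did the length offset, with 42.1% and 41.4% of all genes. Tyrobp did not pass the count filter. Of the 9, 6 had 0 counts in the DMSO libraries, and Lyz2 and Csf1r had too few there to pass the filter. All but Cd68 thus entered the test only through the primary cells. The count of calls and the p-value of Csf1r are therefore given for completeness, and nothing is read from them. This comparison and that of 24 with 2 months share the 2-month libraries, and it shares the DMSO libraries with the comparison of Hymeglusin.

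Genes most like the summed markers over the 10 libraries were ranked by the root mean square difference of centred log2(CPM + 0.5) values. The 8 closest genes that were no markers, with at least 5 CPM in the primary cells, were Lgals9 (0.31), Trim47 (0.41), Tuba8 (0.42), Nmb (0.43), Styxl1 (0.44), Nuak2 (0.46), Dgat2 (0.46) and Cela3b (0.46). Lgals9, which encodes the lectin galectin-9, stood at 119 ± 31.5 CPM at 24 months, 57.6 ± 2.65 CPM at 2 months, 12.7 ± 0.483 CPM with Hymeglusin and 4.20 ± 1.1997 CPM with DMSO. The markers themselves had larger distances from their own sum, from 0.67 for Lyz2 to 1.66 for Adgre1. The added 0.5 narrows the range of genes near that level, such as Adgre1, at no more than 0.951 CPM in any library. The minimum of 5 CPM was not applied to the markers. Their distances are therefore not comparable with those of the 8 genes, and nothing is read from them about profiles.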

How the data were processed

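The authors deposited read counts for each gene as whole numbers, with no normalization. The submitters' processing notes name HISAT2 2.2.1, featureCounts 2.0.6, fastp 0.23.4, FastQC 0.12.1 and the build mm10. No source used here gives their options, strand setting or annotation. The table held 0 value columns of no sample.

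The primary, MLTC-1 and mixed (2-month and DMSO) libraries were fitted separately with edgeR 4.0.16 in R 4.3.3 (filterByExpr with a minimum count of 10 and total of 15, TMM, robust quasi-likelihood F-test, two-sided, Benjamini-Hochberg over all genes, threshold 0.05). The SE is the log2 fold change over the square root of F. Printed CPM uses TMM over all 10 libraries, so its ratios differ slightly from fitted changes. Transcript lengths are those of the longest GENCODE M21 transcript (97.8% of genes tested with age). The offset is a loess trend (span 0.3, 2 passes). Tests were tried on simulated counts. Alternatives were other scalings, DESeq2 1.42.0, limma-voom 3.58.1, other count filters, 1 fit of all libraries, a replicate block and leaving out each library. The markers, lists and alternatives were chosen with earlier results of these data known. Named genes were all 10 markers, up to 4 members of each other list by smallest p with age, and the 8 closest in profile, though some of these are not reported here. A planned test of the summed markers is not reported. Genes outside this rule (Ly6g, Folr2, Acrv1, Ctsb, C1ra, Hmgxb3, Pdgfrb and Lyz1) were named after their values were seen.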

Additional observations from a re-analysis of the deposited data

How the results depend on the processing

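Among values of single markers at 24 against 2 months, 115 kept direction and call over the alternatives, 3 lost a call, 1 gained one and 12 changed sign, none of them of a called gene. Those with a length offset were Cd68 (-0.026), Cd163 (0.38) and Tyrobp (-0.33), and Csf1r was at -0.023 with total counts. Mrc1 was at -0.24 with total counts, -0.44 by limma-voom, -0.000799 with no count filter, -0.23 with the replicate block, and -0.23 without 2-month replicate 1, in a range of -1.47 to 0.73 leaving out each library. Cd163 ran from -0.75 to 0.10 leaving out each library, above 0 without 2-month replicate 1 (0.05) and without 24-month replicate 2. With Hymeglusin, Cd68 ran from -0.32 to 0.46 leaving out each library, below 0 when DMSO replicate 2 (-0.32) or Hymeglusin replicate 2 (-0.18) was left out, and the other 28 values kept direction and call, as did all 124 for 2-month primary against MLTC-1 cells. A filter at 10 CPM left Lyz2 as the single marker tested with age, and called it, and left no marker in the other comparisons.

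Over all genes at 24 against 2 months, calls were 2214 higher and 2471 lower. They were 531 and 1301 with total counts, 4309 and 4559 in 1 fit of all libraries, 1424 and 907 with the length offset, and 239 to 4259 and 602 to 5628 leaving out each library (lowest without 2-month replicate 1, highest without 24-month replicate 2; 481 and 972 without 2-month replicate 2, 2655 and 4016 without 24-month replicate 1), where 3 to 5 markers were called higher and 0 lower. Total counts moved the median of all genes to -0.21 and upper quartile scaling to 0.17, with 29.0% and 59.6% of calls higher against 47.3%. With Hymeglusin, 3069 were higher and 3149 lower, 4659 and 1996 with total counts (70.0% higher against 49.4%), and 645 and 289 in 1 fit of all libraries. Leaving out each library gave 2644 to 2913 and 2753 to 3074, with 1 marker higher each time. For 2-month primary against MLTC-1 cells, 7797 were higher, 4980 with the 10 CPM filter, and 7492 to 7875 leaving out each library. The causes of these shifts were not tested.

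The summed markers stood at a log2 ratio of 1.80 at 24 over 2 months, 1.65 to 1.93 leaving out each library, 1.45 without Lyz2 and, chosen after seeing the data, 0.42 without the C1q genes and Lyz2. With Hymeglusin it was 2.11, 1.92 to 2.54 leaving out each library, and 0.52 without Csf1r, also chosen after seeing the data.

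The labels give no pairing, and same-numbered libraries did not deviate together (correlation -0.09 at 24 and 2 months, -0.02 to 0.03 in MLTC-1 cells, where 2 of 6 libraries correlated best with their own number). With the replicate block, 2088 genes were higher and 2686 lower with age, 4 markers were called higher, and no call of a marker changed. Depth limits Tyrobp, Cd163 and Adgre1, with under 25 counts in every library.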

Other observations

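Counts from 1 to 20 were even more often than odd. They were even in 78.2% and 75.9% of such values in the 24-month libraries, 70.5% and 71.4% at 2 months, 61.6% to 62.7% with Hymeglusin and 59.7% to 60.6% with DMSO, against 49.6% to 51.1% of values of at least 100 in all libraries.

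The 4 globin genes listed for red blood cells were at 0 in all 10 libraries. The mast cell list of 5 genes reached at most 0.211 CPM in any library and was at 0 in both 24-month libraries.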
